A study of Arabidopsis thaliana with 6 samples.

Results

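The brightest transcripts of Arabidopsis thaliana pollen tubes were taken as the probe sets with a linear signal above 2000 on all 6 arrays, 3 of agp6 agp11 and 3 of wild type. Of 22746 probe sets, 163 met this minimum and 4 of them, for loci of secreted CAP family proteins and of sperm cells, were left out by rule. The remaining 159 probe sets are 0.699% of the array. The agp6 agp11 plants were a homozygous double null line that carries Ds transposon insertions in the arabinogalactan protein genes AGP6 and AGP11 and came from a single cross of 2 insertion lines, and the wild type plants were of the ecotype Nossen, as both genotypes are labelled. Pollen from newly opened flowers, pooled from many flowers, was germinated in liquid medium in the dark for 8 h, and total RNA of each of 3 biological replicates per genotype was hybridised to 1 Affymetrix ATH1 array. The files hold signals that the authors had normalized and summarised, on a linear scale without unit. Where nothing says which plants or days lie behind a replicate, the p-values measure the spread between these arrays.

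A pollen tube is a single cell that grows at its tip by secreting wall material. The new wall at the tip is mostly pectin, which is delivered in a methylesterified form. Pectin methylesterases remove the methyl groups and let calcium stiffen the wall behind the tip, inhibitor proteins hold these enzymes back, and polygalacturonases and pectate lyases cut the pectin chain. Pollen stores much of the RNA for this machinery before it germinates, so that growth can begin at once.

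The bright probe sets lay at the upper end of a wide range. The median signal of all probe sets was between 23.3 and 24.5 on the 6 arrays, whereas the geometric mean of the 6 signals of a bright probe set was between 2331 and 21155, with a median of 5648. Signals above 10000 on all 6 arrays were found for 22 of them. A signal depends on the affinity of its probes as well as on the RNA, so an order of signals is not an order of transcript numbers. AGP6 and AGP11 themselves are outside the set, since the mutant lacks them. AGP6 had signals of 31.1, 29.1 and 15.1 in agp6 agp11 against 13313, 13677 and 9597 in wild type, and 137 of the 159 bright probe sets had a lower mean signal than AGP6 in wild type. AGP11 had 34.7, 40.4 and 32.5 in agp6 agp11 against 10016, 9448 and 5604 in wild type. The arrays therefore match their genotype labels.

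Both genotypes gave a similar overall picture, with 1 array apart from the others. Signals above 2000 were found for 345, 312 and 288 probe sets on the agp6 agp11 arrays and for 330, 305 and 220 on the wild type arrays, fewest on wild type replicate 3. Without that array 202 probe sets would have qualified, against 160 to 167 without any other array. Of the listed genes of the vegetative cell, the cell that forms the tube, 5 of 6 could be named and exceeded a signal of 40, with summed signals of 23321 to 25460 in agp6 agp11 and 20258 to 22818 in wild type. These sums do not overlap, and most of each comes from the bright probe set paired with VGD1 and VGDH1. CPK34, another of the 5, was higher in agp6 agp11 (log2 fold change 1.62, limma, adjusted p = 0.0120). The only named gene of 5 listed for the tapetum, AMS, stayed at or below 20.9 on every array, and the listed genes of leaf photosynthesis and of petal and carpel identity could not be named, so RNA of those tissues was not tested.

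At the edge of the set, the order of probe sets was a matter of single arrays. Just inside were the unnamed probe set 248086_at, AT3G22290 and the probe set paired with both PPME1 and AT5G07410, with lowest signals of 2071, 2086 and 2091. Just outside were AT5G46200, AT1G52300 and SGP2, with lowest signals of 1988, 1986 and 1985. SGP2 missed the minimum on wild type replicate 3 alone, where it had 1985 against 6508 and 6380 on the other wild type arrays.

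Names could be given to 97 of the 159 bright probe sets. A platform table names a single locus for 85 of them and a pair of loci for 6, and another 6 (VGDH2, sks12, BCB, PCR11, PAB7 and MAP18) are named only in a table of the study whose rows had been selected by their fold change. The other 62 probe sets have no name in the sources used here and are given by their identifiers. Among the 103 loci of the named probe sets, 16 have another such locus within 2 genes along the chromosome, in 10 pairs of which 7 are direct neighbours. The runs AT2G47030, AT2G47040 and AT2G47050 and AT3G62170 and AT3G62180 hold pectin methylesterase and inhibitor genes, and AT3G01240, AT3G01250 and AT3G01270 lie together as well. Some of these neighbours are paired with the same probe set, so their signals cannot be separated.

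The share of all signal held by the 159 probe sets overlapped between the genotypes. This share of the summed signal was 33.7, 34.3 and 33.8% on the agp6 agp11 arrays and 35.2, 34.2 and 35.9% on the wild type arrays. The mean was 33.9 ± 0.293% in agp6 agp11 and 35.1 ± 0.850% in wild type (SD, n = 3 each; exact permutation test, two-sided, p = 0.2, where 3 against 3 arrays cannot go below 0.1). The groups overlap, and after quantile normalization of the arrays the difference of -1.19 percentage points turned to 0.183. A share of normalized signal measures neither the number of tubes nor the amount of RNA per tube. The 25 brightest probe sets alone held 11.3 ± 0.316% of the signal in agp6 agp11 and 11.7 ± 0.743% in wild type.

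Several of the brightest probe sets had almost the same signal on every array. The brightest of all, the unnamed 251252_at, had 21973, 19471 and 23182 in agp6 agp11 against 20417, 19388 and 22833 in wild type. AT3G28750, the brightest with a name and a gene of no role known here, had 19556, 19600 and 19496 in agp6 agp11 against 20191, 19046 and 19113 in wild type. AT2G47050, which encodes a protein with a pectin methylesterase inhibitor domain, had 16919, 17514 and 17803 in agp6 agp11 against 17353, 16626 and 18213 in wild type. In each of the 3 the arrays of the genotypes overlap. The ratio of the highest to the lowest of the 6 signals was smallest for the unnamed 265022_at, at 1.04, followed by AT3G28750 at 1.06, the unnamed 265007_s_at at 1.08, and AT2G47050 and the unnamed 256966_at at 1.10 each. All 5 are among the 10 brightest. The highest signal of an array lay between 20417 and 23182, and it was 22833 on wild type replicate 3, which had the smallest summed signal. Whether signals near the top of the scale follow the amount of RNA was not tested, so a steady signal is not read as steady RNA.

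**Figure D1:**
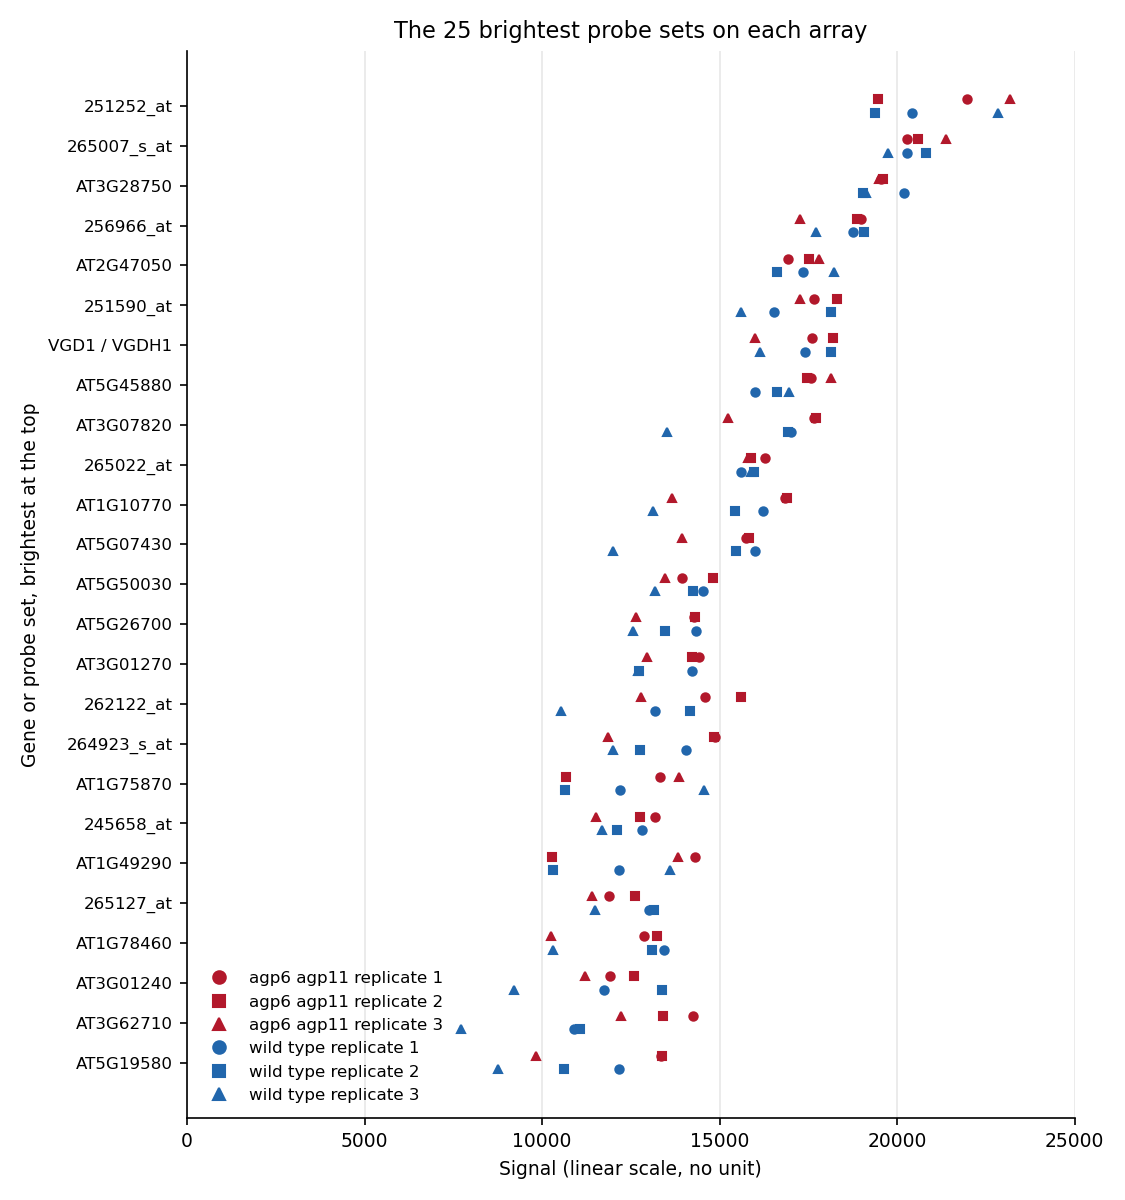
Signals of the 25 brightest probe sets (rows, brightest at the top) on a linear scale, with agp6 agp11 replicates as red points above and wild type replicates as blue points below in each row. The points of the genotypes overlap in every row but those of AT5G45880 and AT3G62710, and the triangles of replicate 3 lie at the left in many rows of both genotypes, as for AT3G07820 and AT1G78460.

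Genes of pectin modification held the largest share of signal of any group with a known role. They make up 19 of the 97 named probe sets and 7 of the 25 brightest. Together they held 5.73, 6.32 and 5.70% of all signal in agp6 agp11 and 5.84, 5.999 and 5.80% in wild type, a difference of 0.0394 percentage points with overlapping arrays. This is 16.1 to 18.4% of the signal of the bright probe sets. Roles were assigned from general knowledge of the gene families after the names were seen, so the group sizes describe the set and were not tested.

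All 7 probe sets of pectin methylesterases had a higher mean in agp6 agp11, but 5 of them with log2 fold changes of only 0.00 to 0.19 and overlapping arrays. The median of the 7 was 0.11. It was 0.11 after quantile normalization, 0.08 after median centring and 0.09 without wild type replicate 3, but 0.02 with the arrays centred on probe sets above a signal of 40. The brightest is paired with both VGD1, known for its part in growth of the tube through the style, and its neighbour VGDH1, and had 17592, 18187 and 15995 in agp6 agp11 against 17404, 18142 and 16148 in wild type. AT5G07430 had 15740, 15813 and 13950 in agp6 agp11 against 15997, 15465 and 12001 in wild type. AT3G05610 had 10547, 10421 and 8339 in agp6 agp11 against 10943, 9913 and 8192 in wild type. All 3 overlap between genotypes and were lowest in replicate 3 of both. VGDH2, a close relative of VGD1, stood apart with 14116, 15304 and 11058 in agp6 agp11 against 8656, 10629 and 4489 in wild type, and the probe set paired with both PPME1 and AT5G07410 with 6882, 8189 and 5844 in agp6 agp11 against 4150, 5657 and 2091 in wild type. In both cases the lowest agp6 agp11 array was above the highest wild type array. PPME1 is a pollen tube methylesterase whose loss gives shorter, irregular tubes.

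The inhibitor-domain proteins differed little and the pectin-cutting enzymes somewhat more, with median sizes of the log2 fold change of 0.10 and 0.21, against 0.11 for the methylesterases. The 6 probe sets with an inhibitor domain had log2 fold changes (agp6 agp11 over wild type) of -0.12 to 0.19 with a median of 0.01 (-0.08 with the arrays centred on probe sets above a signal of 40), and none passed the test. AT1G10770 and AT5G50030 were the brightest after AT2G47050, and AT5G50030 had 13946, 14804 and 13468 in agp6 agp11 against 14534, 14239 and 13187 in wild type. Of the 6 probe sets of polygalacturonases and pectate lyases, the polygalacturonase AT3G07820 was the brightest with 17657, 17707 and 15225 in agp6 agp11 against 17000, 16913 and 13519 in wild type. The pectate lyase AT3G01270 followed with 14425, 14224 and 12954 in agp6 agp11 against 14214, 12743 and 12706 in wild type. The arrays overlap for these genes. AT2G02720 had a log2 fold change of 0.44 and the probe set paired with AT3G14040 and AT3G07850 one of 0.28, both with overlapping arrays. AT2G23900, of the polygalacturonase family, was the only one of the group with a lower mean in the mutant, with 2905, 3151 and 2186 in agp6 agp11 against 4940, 5266 and 2760 in wild type, and even its arrays overlap.

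Other wall and secreted proteins made up a further 20 named probe sets and 4.49 to 5.04% of all signal. Their brightest members were AT5G45880, of the pollen allergen family Ole e 1, with 17559, 17472 and 18149 in agp6 agp11 against 16009, 16610 and 16948 in wild type, and AT5G26700, of the cupin family, with 14270, 14313 and 12638 in agp6 agp11 against 14330, 13451 and 12564 in wild type. The arrays of AT5G45880 do not overlap, yet its log2 fold change was only 0.10 and did not pass the test (adjusted p = 0.879). The 4 pollen members of the LRR-extensin family, wall proteins that bind RALF signal peptides, were all in the set. LRX11 (AT4G33970) had 6249, 6248 and 4840 in agp6 agp11 against 4344, 4078 and 3364 in wild type, with no overlap, while LRX8 (AT3G19020), LRX9 (AT1G49490) and LRX10 (AT2G15880) had log2 fold changes of 0.24, 0.39 and 0.02. Of the wall-loosening expansins, EXPB5 had 7243, 6838 and 8071 in agp6 agp11 against 4243, 3065 and 4683 in wild type, without overlap, and EXPA4 had 4812, 5290 and 2743 in agp6 agp11 against 7492, 6089 and 2715 in wild type, with overlap. The multicopper oxidase gene sks12 and the blue copper protein gene BCB also did not overlap, with mean signals of 10380 ± 497 and 8708 ± 382 in agp6 agp11 against 8341 ± 248 and 6814 ± 312 in wild type (SD, n = 3 each). The log2 differences of sks12 and BCB, 0.31 and 0.35, did not pass the test (limma, adjusted p = 0.563 and 0.517). The carboxypeptidase-like gene scpl38 had 7812, 7430 and 6256 in agp6 agp11 against 7987, 7420 and 6067 in wild type, a log2 fold change of 0.00 with a 95% interval of -0.51 to 0.52.

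Signalling, traffic and nuclear genes were present with fewer and dimmer members. The 8 probe sets of signalling, calcium and cytoskeleton genes were none of the 25 brightest and held 1.33 to 1.64% of all signal. They include the peptide gene RALFL26 (9310, 9967 and 6730 in agp6 agp11 against 11325, 10057 and 9325 in wild type), the receptor kinase gene AT4G39110, known as BUPS1, which is needed to keep the tube intact (4854, 5072 and 3406 in agp6 agp11 against 4497, 4448 and 2263 in wild type), and the beta tubulin gene TUB9 (4348, 5214 and 3699 in agp6 agp11 against 5485, 5250 and 3548 in wild type). All 3 overlap between genotypes. MAP18, a microtubule-associated and calcium-binding protein that guides the direction of tube growth, had 3926, 4048 and 4715 in agp6 agp11 against 2866, 2371 and 2807 in wild type, without overlap. The 8 probe sets of membrane traffic, lipid and transport genes held 0.874 to 1.36% of all signal and include the clathrin adaptors AT1G68110 and AT1G25240. The 9 of nuclear, RNA and translation genes held 1.00 to 1.37% and include EIN3, a transcription factor of ethylene signalling (7290, 3981 and 6228 in agp6 agp11 against 6647, 4366 and 6550 in wild type), the chromatin remodeller gene CHR17 and the histone gene AT2G37470. The arrays overlap for these 5 genes, while PCR11 of the traffic group and PAB7 of the nuclear group did not overlap. By role, the arrays of 4 groups did not overlap in their share of signal. Other wall and secreted proteins were higher in agp6 agp11 by 0.225 percentage points, and the unnamed probe sets, the named ones without a role and the traffic group were lower by 0.616, 0.563 and 0.283 points. After quantile normalization the wall group alone of these 4 did not overlap (0.395 points), and the differences of the other 3 became -0.0617, -0.288 and -0.232 points. The pectin methylesterases, whose shares overlapped before it (0.181 points), were then higher in agp6 agp11 without overlap (0.273 points). Without PCR11 the traffic group differed by -0.0310 points, with overlap.

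**Figure D2:**
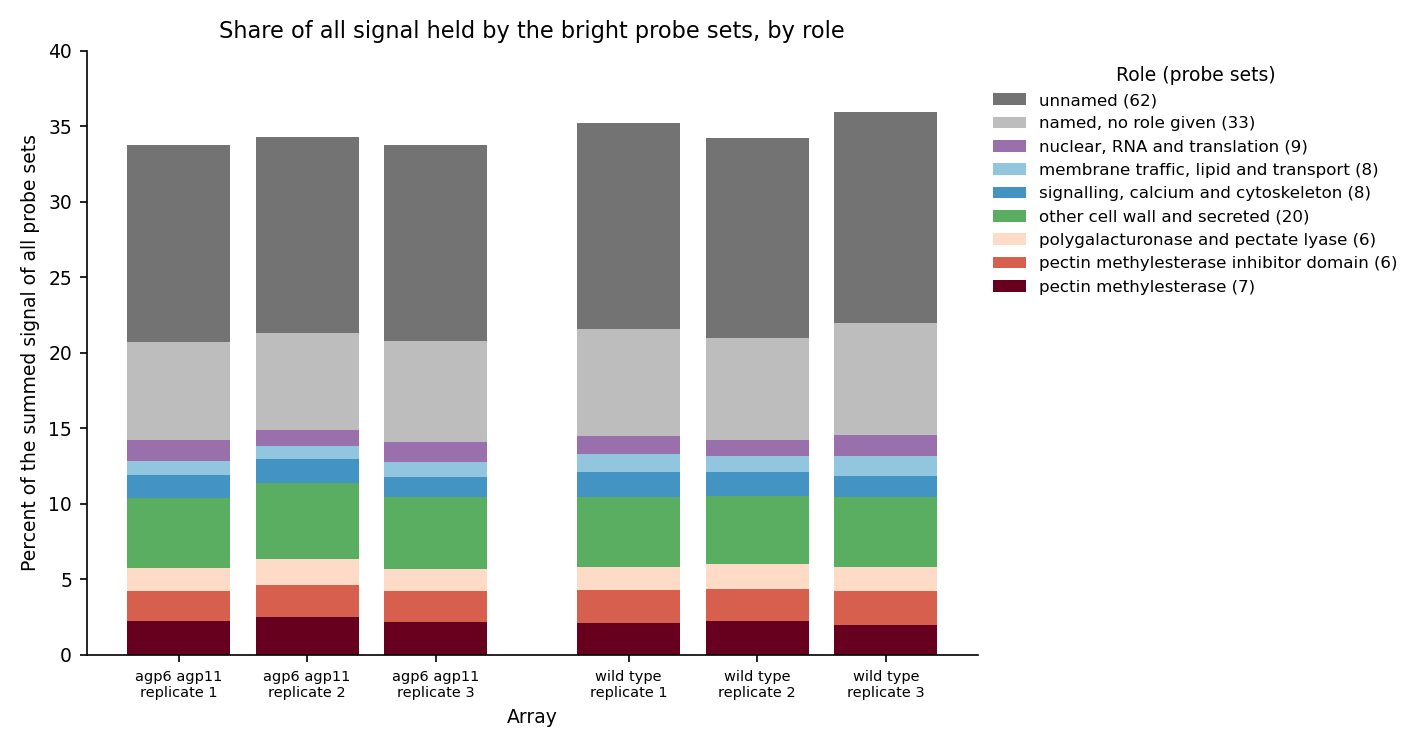
Percent of the summed signal of all 22746 probe sets held by the 159 bright probe sets on each array, stacked by role, with the 3 agp6 agp11 arrays on the left and the 3 wild type arrays on the right. The bars reach 33.7 to 34.3% in agp6 agp11 and 34.2 to 35.9% in wild type, and the unnamed probe sets form the largest block at 12.96 to 13.96%.

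Most of the bright signal came from genes with no role given here. The 62 unnamed probe sets held 12.96 to 13.96% of all signal and include 9 of the 25 brightest, and 33 named genes to which no role was given held a further 6.42 to 7.42% and include 5 of them. The median size of the log2 fold change was 0.15 for the unnamed probe sets and 0.14 for the 97 named ones. The size was under 0.5 for 98.4% of the unnamed and 87.6% of the named. The arrays did not overlap for 4.84% of the unnamed and 14.4% of the named, against 20% of all probe sets. None of the 62 passed the test over all 6 arrays, with or without the replicate number in the fit. In the fit with that number but without replicate 3 of both genotypes, 248905_at, 253526_at, 256403_at and 257986_at passed. A probe set absent from the platform table was named only if the study's own table of differing genes held it. Probe sets selected there by fold change left the unnamed ones by rule, so nothing is read from the difference between named and unnamed.

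The lists of pollen tube genes, which were written with earlier results of these data known, reached the set in part. Of 154 listed loci in 19 lists, 72 had a named probe set and 26 of the bright probe sets carried a listed locus. All 4 probe sets of LRR-extensins were bright, 6 of 11 of pectin methylesterases and their inhibitors, 5 of 8 of pectin-degrading enzymes, 1 of 4 of expansins (EXPB5, while EXPA4 is not on that list), 1 of 5 of the actin cytoskeleton list and none of 4 of membrane transport. Over all measured members of the lists, bright or not, the calcium-dependent kinase gene CPK34 (adjusted p = 0.0120), the proline transporter gene PROT1 (adjusted p = 0.0277) and the glycosyl hydrolase genes BG5 and BGLU36 (adjusted p = 0.0269 and 0.00134) were higher in agp6 agp11 by limma, and PCR11 (adjusted p = 0.00808) was lower. Of these only PCR11 is in the bright set. Over all probe sets 3.68% passed, and 7.99% of the 6482 other probe sets with a mean signal above 40. Since the lists are not independent of earlier results, nothing is read from the calls among their members.

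The genotypes were compared for every probe set with limma on log2 signals, with Benjamini-Hochberg adjustment over all 22746 and a threshold of 0.05. Of the 159 bright probe sets, 1 passed, 0.629% of them, against 3.68% of all probe sets, and it was lower in agp6 agp11, against 1.67% of all that were lower and 2.01% that were higher. Of the 6482 other probe sets with a mean signal above 40, 7.99% passed. At an unadjusted p under 0.05 there were 8, or 5.03%, against 13.8% of all probe sets and 23.2% of those 6482. Since a member has to exceed 2000 in both genotypes, the rule itself holds large changes out of the set, and nothing is read from the lower share. The median log2 fold change of the bright probe sets was 0.08, against 0.03 over all probe sets. It was -0.01 with the arrays centred on probe sets above a signal of 40, and -0.02 without wild type replicate 3, so it has no settled direction. The median size was 0.14, against 0.20 over all probe sets and 0.29 over those 6482 others. The log2 fold change was smaller than 0.5 in size for 146 of the 159 and larger than 1 only for PCR11.

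Since arrays that share a replicate number departed from their genotype means in a similar way, least so for replicate 1, each probe set was also fitted with that number as a block (replicate block). The pairing was read from these same signals, and the labels do not say what a number stands for. The p-values with the block may therefore be too small and its intervals too narrow. With it, 10 of the bright probe sets passed, 7 higher and 3 lower in agp6 agp11. This is 6.29% of them, against 8.34% of all probe sets, of which 5.03% were higher and 3.31% lower, and 20.2% of those 6482 others. Without overlap between genotypes were 12 bright probe sets that were higher and 5 that were lower in agp6 agp11, or 10.7%, against 20% of all probe sets (11.3% higher, 8.71% lower). The 90% bound nearest to no change exceeded 1.3-fold, in either direction, in 5 bright probe sets, against 6.46% of all.

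**Figure D3:**
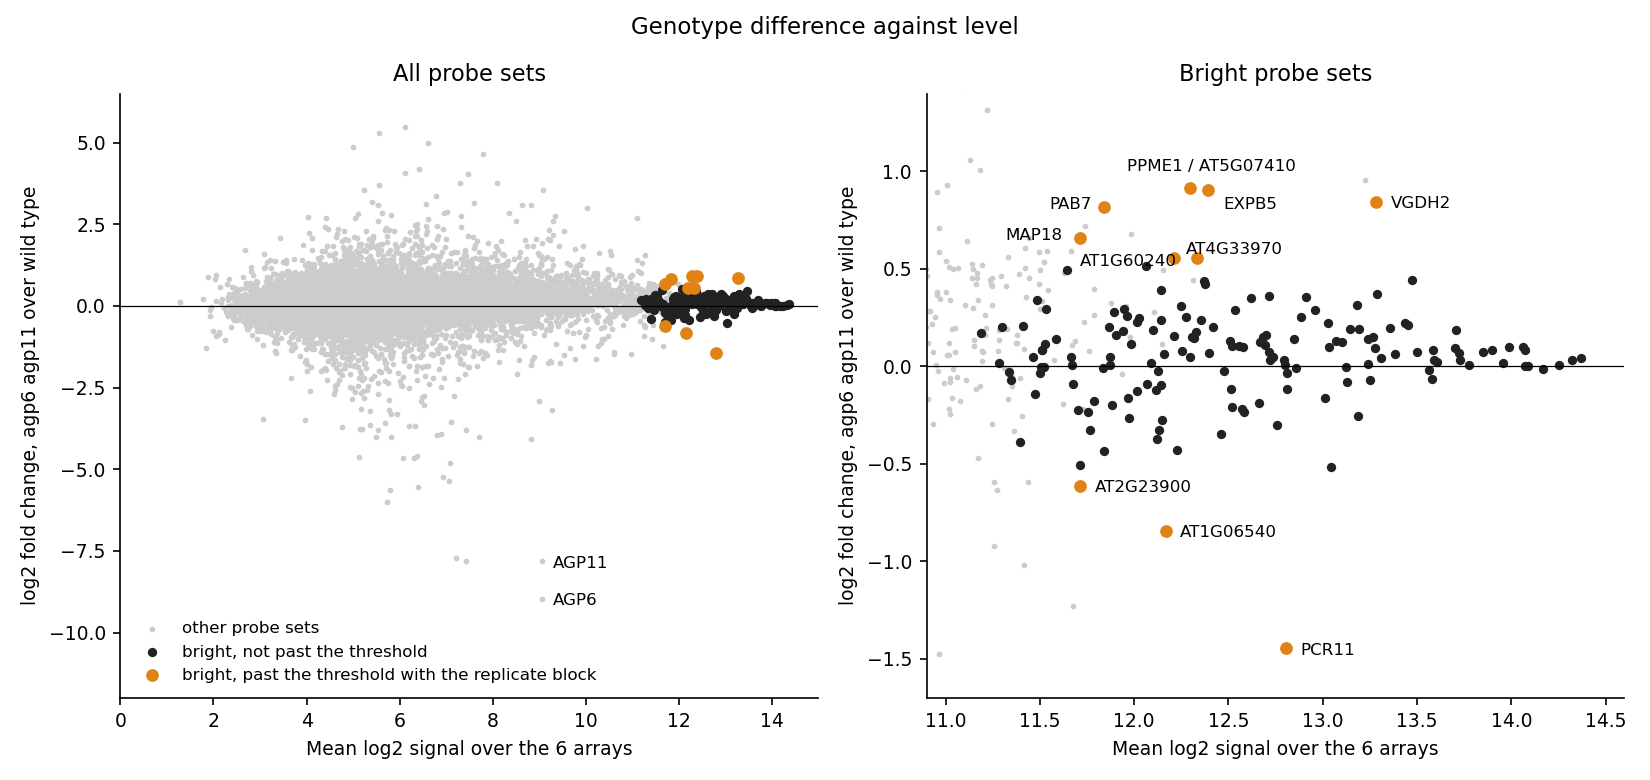
The log2 fold change (agp6 agp11 over wild type) against the mean log2 signal over the 6 arrays, for all probe sets (left, with AGP6 and AGP11 named) and for the bright probe sets (right). Grey points are other probe sets, black points bright probe sets that did not pass, and orange points the 10 that passed with the replicate block, of which PCR11 at -1.45 is farthest from 0.

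PCR11, a small membrane protein of the PLAC8 family, was the one bright gene that fell by the test in the main fit, without the block. It had 5010, 3597 and 4507 in agp6 agp11 against 11662, 10528 and 13397 in wild type, so every mutant array was below every wild type array. Its mean was 4371 ± 716 in agp6 agp11 and 11862 ± 1445 in wild type (SD, n = 3 each), a log2 fold change of -1.45 with a standard error of 0.23 (limma, adjusted p = 0.00808, and 2.98e-04 with the replicate block). Among the bright probe sets it ranked 110 in agp6 agp11 and 23 in wild type, the widest change of rank. It passed in each of the 18 other fits that were made, with adjusted p up to 0.0445 (without wild type replicate 1).

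The other bright genes that passed with the block did not pass in the main fit, which has no block. In other limma fits without it, EXPB5 passed with array weights (adjusted p = 0.0269) and without the trend (0.0493). It also passed with only probe sets above a mean of 40 (0.0357) and without wild type replicate 3 (0.0496). AT1G06540 passed with array weights (0.0171). The others passed in none of these fits. AT1G06540, of no role known here, had 3477, 2652 and 4404 in agp6 agp11 against 6780, 4806 and 7178 in wild type, a log2 fold change of -0.84 (adjusted p = 0.00615 with the block, 0.181 without). The polygalacturonase family gene AT2G23900 had a log2 fold change of -0.61 (0.0417 with the block, 0.431 without). The mutant arrays of AT1G06540 all lay below the wild type arrays.

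Higher in agp6 agp11 with the block were 7 probe sets, of which 4 belong to the wall. Pectin genes and other wall and secreted proteins are 19 and 20 of the 97 named probe sets, and AT2G23900, which was lower, is a pectin gene too. Nothing is therefore read from the 4. The probe set of PPME1 and AT5G07410 had the largest log2 fold change, 0.92 (adjusted p = 0.0179 with the block, 0.278 without), followed by EXPB5 with 0.90 (0.00531 with the block, 0.0916 without), VGDH2 with 0.84 (0.0155 with the block, 0.272 without) and LRX11 with 0.55 (0.0416 with the block, 0.334 without). The differences of VGDH2 and of the PPME1 probe set leaned in part on wild type replicate 3, and without that array they were 0.48 and 0.51. Both probe sets were lowest in replicate 3 of both genotypes. In the block fit without replicate 3 of both genotypes, their differences were 0.62 and 0.63. PAB7, a poly(A)-binding protein, had 6330, 3944 and 4614 in agp6 agp11 against 3198, 2398 and 2731 in wild type, a log2 fold change of 0.82 (adjusted p = 0.00773 with the block, 0.166 without). MAP18 had 0.66 (0.0257 with the block, 0.214 without) and AT1G60240 had 0.56 (0.0403 with the block, 0.381 without). In the block fit without both arrays of replicate 1, PCR11 alone passed, and the 9 other calls were lost, although the log2 fold changes of the 7 higher probe sets were still 0.52 to 1.01 and those of AT1G06540 and AT2G23900 -0.78 and -0.54. Without replicate 2, 6 bright probe sets passed, and without replicate 3, 17. Of the 10, 4 (PCR11, PAB7, MAP18 and VGDH2) have a name only through the study's own selection by fold change, so the share of named genes among them is not independent of that selection.

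Some transcripts were bright in 1 genotype only. The minimum was met on all 3 arrays of agp6 agp11 but not of wild type by 69 probe sets, and on all 3 of wild type but not of agp6 agp11 by 16. Single arrays decide these counts. When wild type replicate 3 was left out the counts became 25 and 77, the count of 69 became 133 on omission of agp6 agp11 replicate 3, and that of 16 became 33 on omission of wild type replicate 2. Both sets are defined by the signals that a test of the genotypes would use, so nothing is read from such a test. By limma 7 of the 69 passed as higher and 6 of the 16 as lower, against 2.01 and 1.67% of all probe sets. The genes given next are among those that passed and were chosen after their values were seen. They do not stand for the rest of the 69 and 16. The 69 include BGLU36, of a glucosidase family (3161, 3244 and 2506 in agp6 agp11 against 586, 377 and 232 in wild type), and AT2G19980, of the CAP family (5737, 5278 and 5876 in agp6 agp11 against 1030, 1075 and 589 in wild type). The 16 include, besides AGP6 and AGP11, the cellulase family gene CEL3 (841, 1044 and 1002 in agp6 agp11 against 2553, 2149 and 2934 in wild type). In all 3 genes the genotypes do not overlap.

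How far the bright transcripts can be called stable was read from the 95% interval of the fold change. For 39 of the 159 (24.5%) the whole interval lay within 1.5-fold of equality, against 30.5% of all probe sets and 9.04% of the 6482 others with a mean above 40. With the replicate block it lay within 1.5-fold for 112 (70.4%), against 41.7 and 35%. The minimum on all 6 arrays itself keeps large changes and low arrays out of the set, so these shares describe the members and nothing is read from their distance to the other probe sets. Within 2-fold it lay for 128, and within 1.3-fold for none. The numbers differ between ranks, with no steady fall. Of the 40 brightest, 26 were within 1.5-fold (34 with the block), of those ranked 41 to 80, 6 (30), of those ranked 81 to 120, 1 (21), and of the rest, 6 (27). The median SD of log2 signals within a genotype was 0.13 in the 40 brightest, 0.26 in the next 40, 0.39 in those ranked 81 to 120 and 0.24 in the rest. Of the 19 pectin probe sets 8 were within 1.5-fold (14 with the block), and of the 8 of signalling, calcium and cytoskeleton none (4 with the block). An interval that reaches beyond 1.5-fold does not show that a transcript differed. How far the highest signals follow the amount of RNA was not tested.

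**Figure D4:**
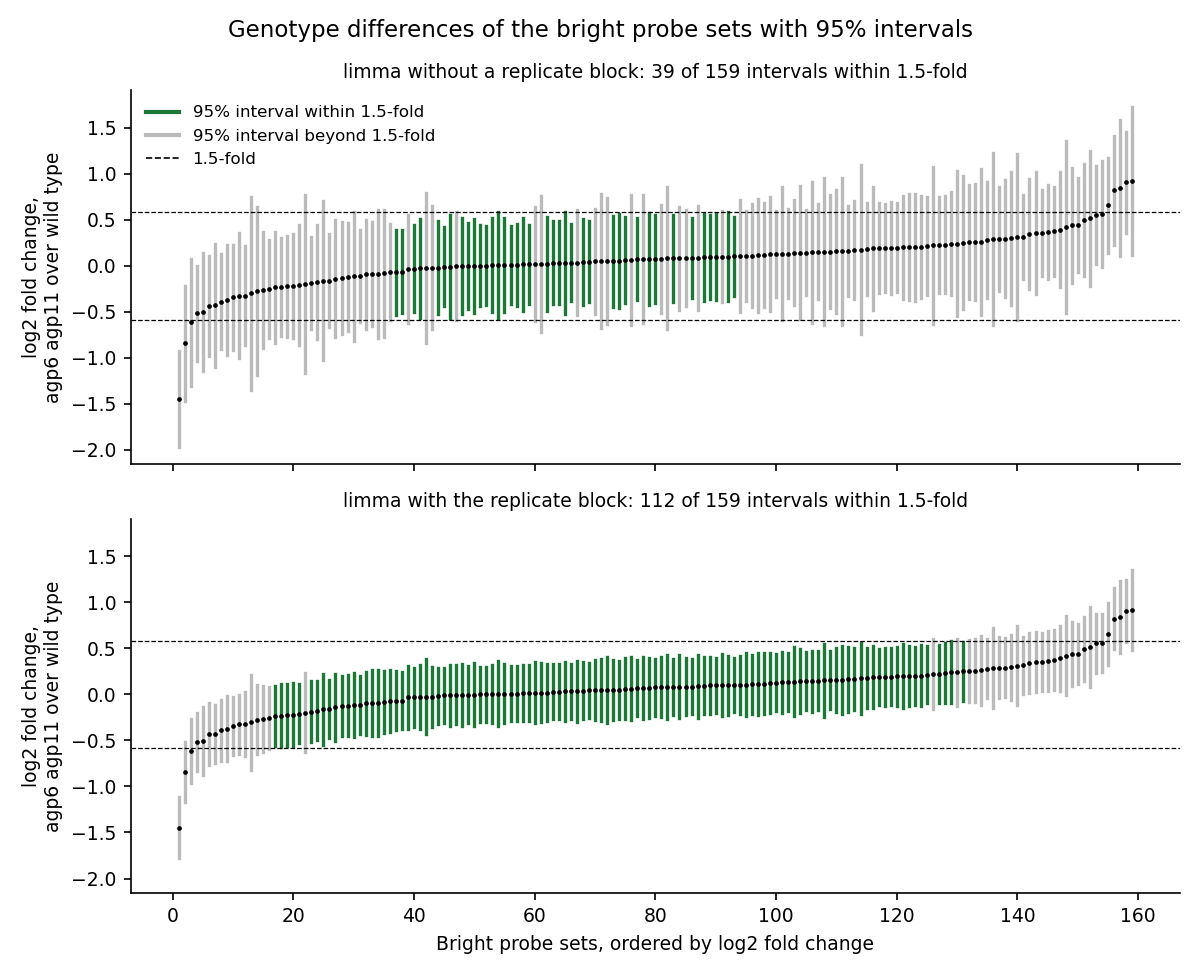
The log2 fold change (agp6 agp11 over wild type, black points) of the 159 bright probe sets in rising order, with 95% intervals from limma without (top) and with (bottom) the replicate block. Green intervals lie within 1.5-fold (dashed lines), 39 at the top and 112 at the bottom, and grey ones reach beyond it.

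The order of the bright probe sets was much the same in both genotypes. Across the 159 the Spearman correlation between the mean signals of agp6 agp11 and wild type was 0.918, as a description across probe sets that share arrays. Of the 25 brightest of each genotype, 21 were in common, and the median change of rank was 6. The AT3G62710 gene of glycosyl hydrolase family 3 ranked 19 in agp6 agp11 and 33 in wild type, with 14256, 13400 and 12218 in agp6 agp11 against 10892, 11054 and 7720 in wild type. These arrays do not overlap, but the log2 difference of 0.44 did not pass the test (adjusted p = 0.448, and 0.110 with the block).

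Replicates of a genotype differed as well. The ratio of the highest to the lowest signal within a genotype was over 1.5 in at least 1 genotype for 72 of the 159 (45.3%), against 50.8% of all probe sets and 65.4% of the 6482 others. The spread ran along the replicate numbers. In both genotypes the lowest array was replicate 3 for 87 bright probe sets (54.7%, against 23.6% of all probe sets), replicate 2 for 47 (29.6%, against 13.9%) and replicate 1 for 2 (1.26%, against 9.82%). Among the 6482 others these shares were 36.6, 23.8 and 5.43%, and among the 731 others with a mean of 500 to 2000, the nearest in level, 41, 33.8 and 2.46%. Deviations from the genotype mean on arrays of equal number had correlations across the bright probe sets of 0.441, 0.841 and 0.901 for replicates 1, 2 and 3, against 0.239, 0.347 and 0.379 over all probe sets, as a description without a test. For arrays of unequal number the 6 correlations across the bright probe sets ran from -0.861 to 0.404, and the highest of them, for agp6 agp11 replicate 2 with wild type replicate 1, was close to that for replicate 1. Wild type replicate 3 also had the smallest summed signal.

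Both patterns occurred in most role groups, in unequal numbers that were not tested. Of the 19 pectin probe sets, 16 were lowest in replicate 3 of both genotypes, and of the 8 of signalling, calcium and cytoskeleton, 6. Of the 9 of nuclear, RNA and translation genes, 8 were lowest in replicate 2 of both. The unnamed probe sets held 35 with replicate 3 and 19 with replicate 2 lowest, the 33 named without a role 15 and 14, the 20 of other wall and secreted proteins 12 and 2, and the 8 of traffic 2 and 3. Where replicate 3 was lowest, its median ratio to the genotype mean was 0.846 in agp6 agp11 and 0.784 in wild type, and where replicate 2 was lowest, the ratio was 0.809 in agp6 agp11 and 0.853 in wild type. AT3G54800 shows the first pattern, with 7487, 6993 and 4434 in agp6 agp11 against 6241, 6799 and 2280 in wild type, and EIN3 the second. AT3G26110, with 6785, 7684 and 4678 in agp6 agp11 against 11135, 12346 and 3320 in wild type, was among the least steady. The ratio of its highest to its lowest signal was 3.72, as for PCR11, and only the PPME1 probe set had more (3.92). What the replicate numbers stand for is not given in the sources used here, and its part in these differences was not tested.

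**Figure D5:**
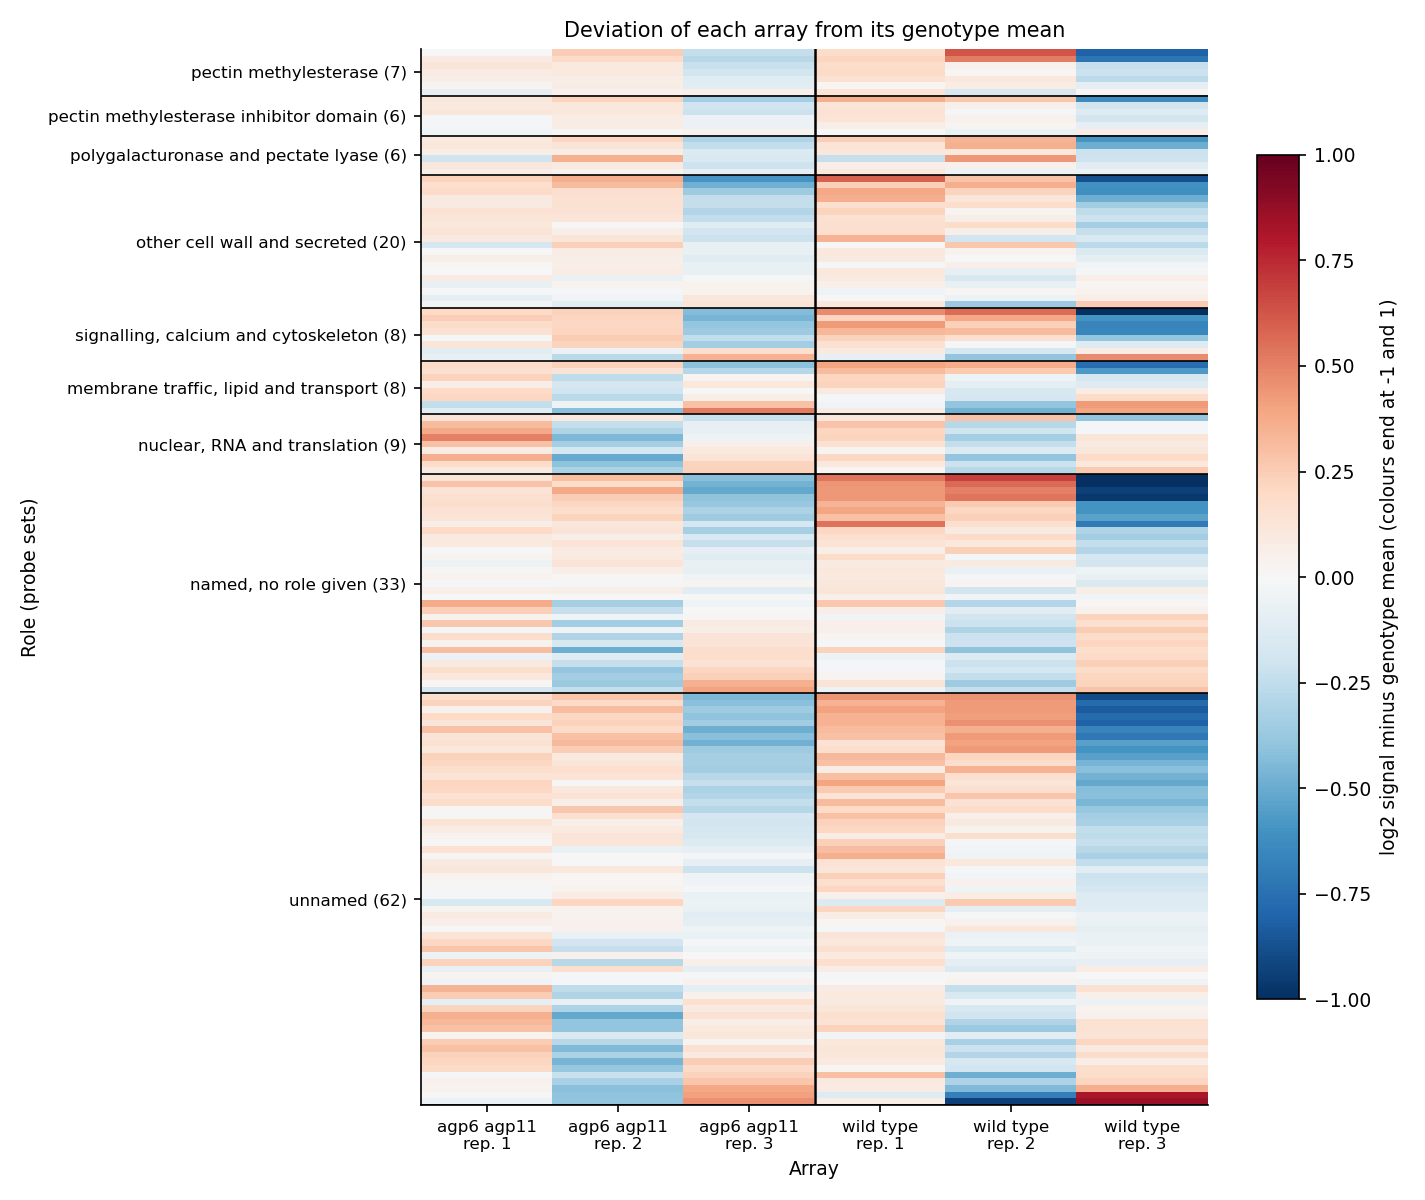
Deviation of the log2 signal of each of the 159 bright probe sets (rows, grouped by role) from the mean of its genotype on each array, agp6 agp11 on the left and wild type on the right. Blue in the replicate 3 columns of both genotypes runs through the pectin and signalling groups (16 of 19 and 6 of 8 lowest there), and blue in the replicate 2 columns through the nuclear, RNA and translation group (8 of 9), while the unnamed group and the group without a role hold both.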

How the data were processed

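Signals of 22746 probe sets on 6 ATH1 arrays (3 agp6 agp11, 3 wild type) were used. Scaling between arrays by dChip (version 2010), with its invariant set, was done by the authors, who deposited linear intensity values from a model of the perfect match probes. Present calls and probe-level data were not used. The members and lists were chosen with earlier results of these data known, and 2 loci whose annotation did not match their list were taken out.

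Intensities were raised to at least 1, taken as log2 and fitted by limma 3.58.1 under R 4.3.3 (lmFit, eBayes with trend, agp6 agp11 minus wild type), with Benjamini-Hochberg adjustment over all probe sets and a threshold of 0.05. Probe sets were named from the platform table, with RefSeq locus tags, and otherwise from a supplementary table of the study. The genes named are the 25 brightest, the 10 largest rises and falls, up to 8 members of each list, 3 on each side of the minimum, the 5 steadiest, AGP6 and AGP11. Others (among them AT3G54800, AT3G26110, BGLU36, AT2G19980 and CEL3) were chosen after their values were seen. Two-sided permutation tests were exact. The same-number correlations of 0.239, 0.347 and 0.379 over all probe sets exceeded 0.1, so the numbers were taken as pairs. The fitting script was tested on simulated data. The number of arrays limits the precision. Lower 90% bounds of fold changes were computed after Fieller from the spread between arrays. Python 3.11.15 with scipy 1.17.1 was used otherwise. Search of promoters for motifs was not run, since no sequences were used here.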

Additional observations from a re-analysis of the deposited data

How the results depend on the processing

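Every value rests on 3 arrays per genotype. PCR11 passed in all fits, and the 20 largest differences kept their direction in each of their 359 alternatives, 33 of which passed the test where the main fit did not. The bright set counted 100 with a minimum of 3000 and 264 by genotype means above 2000, and 160 to 202 with 1 array left out. Its share of signal, 34.5% over the 6 arrays, was 39.0 and 27.6% for minimums of 1500 and 3000 and 33.5% without probe sets that may match several genes. The genotype difference of the share changed sign under quantile normalization (0.183 percentage points, exact permutation p = 0.7). Over all probe sets, 837 passed, 1897 with the replicate block, 2019 with array weights, 1469 by a lower fold bound above 1.3, 372 to 871 with 1 array left out, and 625, 1914 and 2580 with the block and replicate 1, 2 or 3 of both genotypes left out. Of the bright probe sets, 10 passed with the block, 3 with array weights, 2 without the trend, 2 with only probe sets above a mean of 40, 5 by the lower bound, 1 to 2 with 1 array left out, and 1, 6 and 17 with the block and 1 number left out. Intervals within 1.5-fold numbered 112 with the block, 75 with array weights, 69 after quantile normalization, 62 without the trend, 60 with an offset of 32, 2 to 51 with 1 array left out and 59, 69 and 131 with the block and 1 number left out. Within 1.3-fold there were 0 and within 2-fold 128. Fewer arrays alone widen an interval only where the spread stays the same. With 1 array left out the count within 1.5-fold fell from 39, except without wild type replicate 3, where it rose to 51. With the block it fell from 112 without replicate 1 or 2 of both genotypes, and rose to 131 without replicate 3. The cause of these changes was not tested. The fits with a replicate number left out, the counts bright in 1 genotype and the role shares after quantile normalization or without PCR11 were chosen after seeing the data. The planned search of promoters was not run.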
